A study of Mus musculus with 8 samples.

Results

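The genes that encode the enzymes which add methyl groups to lysines of histones, and those that remove them, were followed in activated mouse CD8+ T cells with and without the kinase LKB1. Members were taken by name: every gene of the count tables whose symbol starts with Kdm, Kmt, Setd, Ezh, Suv39h, Suv420h, Ehmt, Smyd or Whsc1, and Nsd1, Dot1l, Eed, Suz12, Ash1l, Jarid2 and Ash2l. This gave 56 of the 24421 genes in the tables, of which 34 are writers (genes with a methyltransferase domain), 4 are non-catalytic partners of writers (Eed, Suz12, Jarid2 and Ash2l) and 18 are erasers (Kdm genes, the demethylases). Of the 56, 55 had enough reads to be tested, and the eraser Kdm4d, at 0.27 to 1.75 CPM, had not. The names do not assure the activity: Kmt2e and several Setd and Smyd members have other or disputed substrates.

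The comparison had 4 LKB1-deficient and 4 control libraries, the controls being LKB1 wild type. CD8+ T cells are the killer cells of the adaptive immune system. In both groups they were taken naive and activated for 48 hours on plates coated with antibodies to CD3 and CD28, which stand in for antigen and costimulation. LKB1 is the protein of Stk11, an upstream kinase of AMPK and its relatives. The labels give no strain, age or deletion strategy and do not say whether replicates are separate animals, so the p-values measure the spread between these samples, which may be in part technical.

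Histone lysine methylation marks the state of a gene. The COMPASS complexes of the SET1 and MLL enzymes methylate lysine 4 of histone H3 (H3K4) at active promoters and enhancers. Polycomb repressive complex 2 (PRC2), with EZH1 or EZH2 as its catalytic subunit, methylates H3K27 at silent genes. The SUV39H, G9a and SETDB1 enzymes methylate H3K9 in heterochromatin. When CD8+ T cells become effectors, H3K27 and H3K9 methylation silence genes of the naive and memory state, and demethylases of the KDM family reverse these marks.

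Depth ran from 3454388 to 6356125 gene counts in the LKB1-deficient libraries and from 7090252 to 12211930 in the control libraries, so genes with few reads were measured less precisely in LKB1-deficient cells. Values are CPM, read counts divided by TMM-scaled library size. Fold changes are LKB1-deficient over control from edgeR's quasi-likelihood test, with p-values adjusted over all 10396 genes tested and a call at 0.05. LKB1-deficient replicates 2 and 4 had the highest levels of long genes and control replicates 3 and 4 the lowest, as given below. Replicate 4 of both groups had high Xist, the X-inactivation RNA of female cells (922 CPM in the LKB1-deficient and 522 CPM in the control library, against 0.757 to 1.69 CPM in the other libraries). Stk11 itself was at 76.5, 70.8, 107 and 64.4 CPM in LKB1-deficient replicates 1 to 4, against 101, 67.8, 82 and 77 CPM in control replicates 1 to 4 (log2 fold change -0.03 ± 0.18 SE, adjusted p = 0.911). These 3' reads do not check a deletion elsewhere in the gene. The T cell genes Cd8a, Cd8b1, Cd3e, Cd3d and Cd3g summed to 1498 to 2428 CPM in LKB1-deficient and 2984 to 3533 CPM in control libraries, and Cd8a, Cd3d and Cd3g were lower in LKB1-deficient cells. Summed markers of CD4 T cells, B cells, monocytes and macrophages, and dendritic cells each stayed at or under 10.1 CPM in every LKB1-deficient and 12.6 CPM in every control library, with the B cell gene Cd79b lower in LKB1-deficient cells. The 6 mast cell and basophil markers summed to 5.06 to 23.9 CPM in LKB1-deficient and 4.4 to 5.75 CPM in control libraries. The 3 of these markers that were tested all had positive log2 fold changes (median 1.23), as had 5231 of all 10396 tested genes. Of these 3 markers 1 was called higher, against 12.4% of all tested genes. For 1 of them, not Gata2, every LKB1-deficient library lay above every control library. The transcription factor Gata2 was at 0.563, 9.62, 2.36 and 8.36 CPM in LKB1-deficient replicates 1 to 4, against 0.809, 1.14, 1.29 and 1.69 CPM in the controls. It was thus higher on average in LKB1-deficient cells and highest in replicates 2 and 4, as the writers were, but LKB1-deficient replicate 1 lay below all controls. The 5 red cell genes were at 0, and the 3 NK cell markers summed to 83.7 to 154 CPM in LKB1-deficient and 66.3 to 116 CPM in control libraries. The part of other cells in the results below was not tested, and in bulk RNA fewer cells of a type and less RNA per cell cannot be told apart.

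More writers were higher than lower in LKB1-deficient cells. Of the 34 writers, 9 rose (Setd1a, Kmt2d, Nsd1, Ash1l, Setd1b, Kmt2c, Setd8, Kmt2b and Dot1l), 1 fell (Smyd3) and 24 did not pass, while 12.4% of all tested genes were called higher and 10.1% lower. That is 26.5% of the writers higher and 2.94% lower. The writers have a median transcript of 6041.5 bases, against 3336.5 bases for all tested genes. Of all genes in the longest of 4 equal classes of transcript length, 25.2% were higher and 3.86% lower. These are near the shares of the writers, but not all writers lie in that class. Of the 32 members of any kind that lie in it, 10 rose and 1 fell. Of the 4 partners, Suz12 rose. Of the 17 erasers tested, 2 rose (Kdm6b and Kdm2b), none fell and 15 did not pass. Their share of 11.8% higher is near the 12.4% of all genes and under the 25.2% of the longest class. The erasers have a median transcript of 5935 bases, which lies in that class, though not all erasers do. No eraser was lower at an unadjusted p under 0.05 in edgeR, nor by DESeq2 or limma-voom at an adjusted p of 0.05. The median log2 fold change was 0.34 for writers, 0.36 for partners and 0.26 for erasers, against 0.00 for all tested genes. At an unadjusted p under 0.05, 23 of the 55 members were higher and 2 lower, against 20.8% and 18.4% of all tested genes. Every LKB1-deficient library lay above every control library for 9 members, and every one below for 1, against 12% and 14.1% of all tested genes, or 26.1% in either direction.

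**Figure D1:**
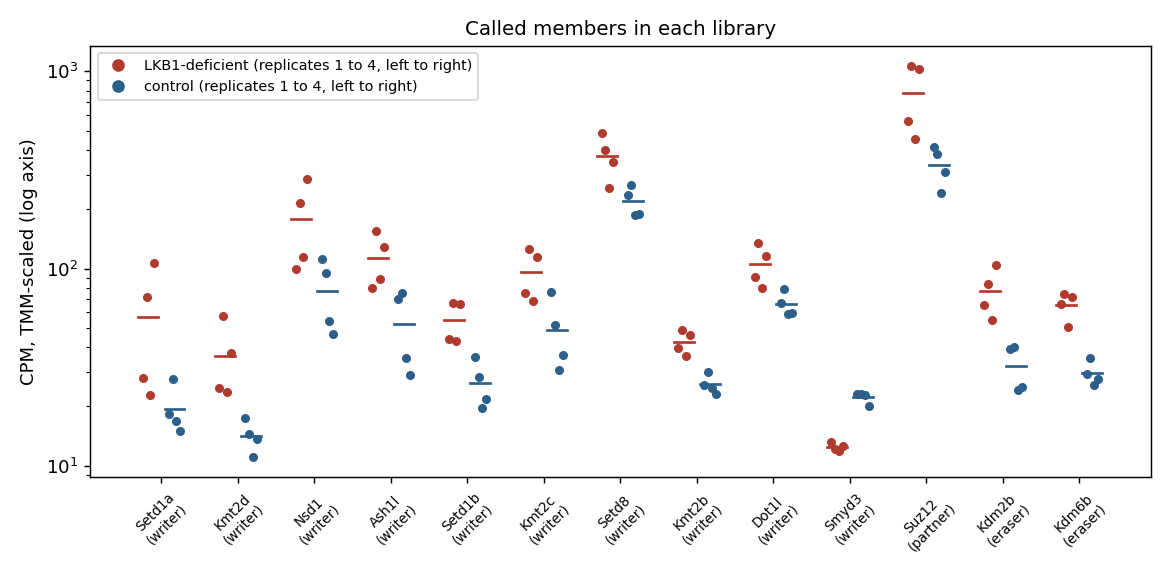
CPM (TMM-scaled, log axis) of the 13 called members in each library, with LKB1-deficient libraries in red left of control libraries in blue, replicates 1 to 4 from left to right and a bar at each group mean (n = 4). Smyd3 is the only one of the 13 with lower values in LKB1-deficient cells, and for the others, except Setd8, LKB1-deficient replicates 2 and 4 are the highest points.

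The number of writers called depended on single libraries. The 9 became 3 when control replicate 3, control replicate 4, LKB1-deficient replicate 2 or LKB1-deficient replicate 4 was left out. The count of all genes called higher fell in the same fits as well, to 560, 710, 637 and 576, against 1286 with all libraries. Without both LKB1-deficient replicates 2 and 4 no writer was higher, in a fit in which 162 genes in all were higher and 98 lower. Among the 13 called members, the call of Kdm6b as higher and of Smyd3 as lower then remained, and the same was so without replicate 4 of both groups. A term for high Xist ended the calls of Setd1a (adjusted p = 0.0607), Nsd1 (0.0757), Ash1l (0.0518) and Kmt2c (0.0648), as did using no filter on low counts (0.0815, 0.0867, 0.0746 and 0.0725). DESeq2 called 12 writers, 2 partners and 4 erasers higher, and added Whsc1l1, Setd5, Ezh2, Eed, Kdm5a and Kdm5c to the members called here. DESeq2 called more of all genes too, 14.5% of the 12157 it gave an adjusted p as higher and 11.1% as lower. By limma-voom, which called 11.6% of all genes higher and 9.76% lower (21.4% in either direction), Setd1a did not pass, at 1.27 (adjusted p = 0.0638). A term for the prefix of the sample identifier (ET or EU) ended the calls of Ash1l (adjusted p = 0.0563) and Nsd1 (0.0643) and left 7 writers higher. With the trend on transcript length removed, 2 of the 9 writers passed, as described below.

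**Figure D2:**
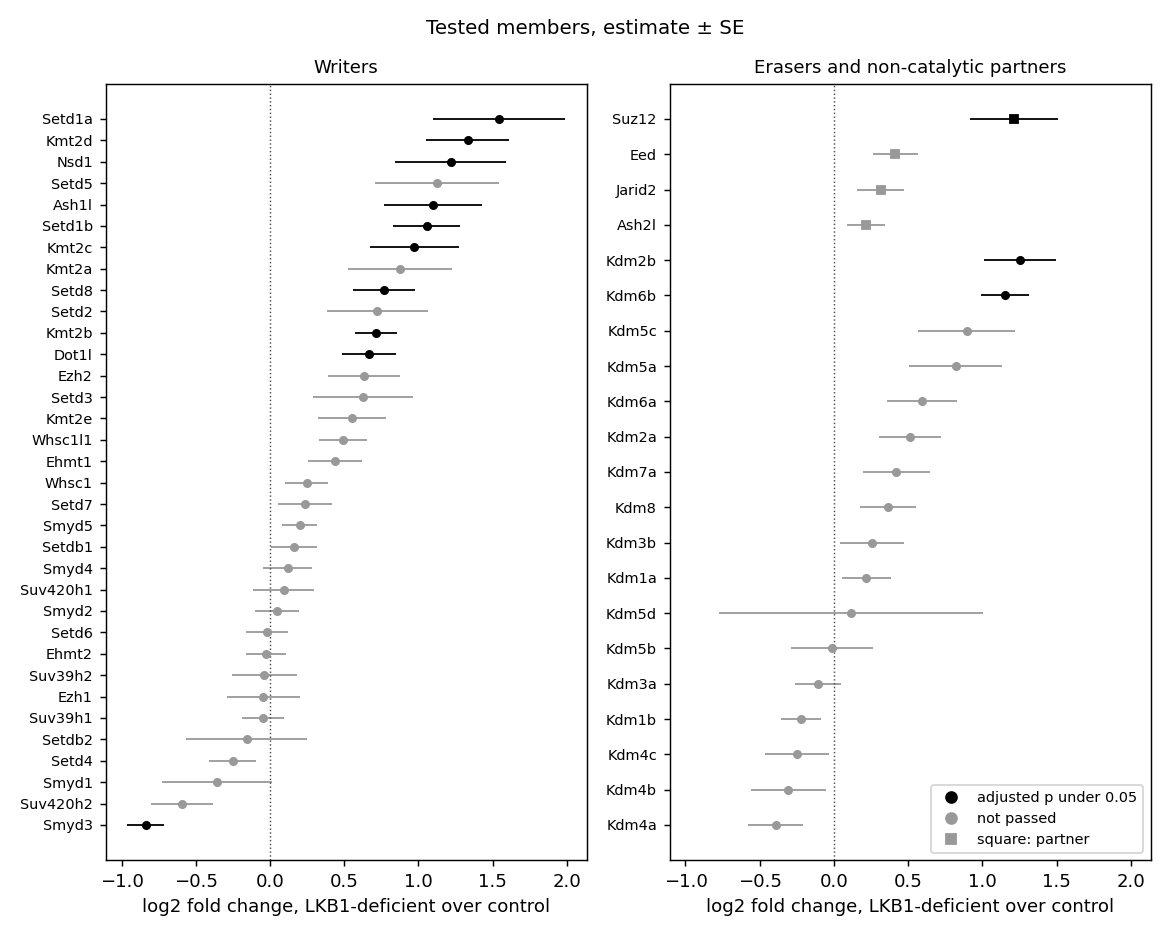
Log2 fold change (LKB1-deficient over control) of the 55 tested members with its standard error, writers on the left and erasers (circles) and partners (squares) on the right and black points passed an adjusted p of 0.05. The 9 writers that rose span 0.67 to 1.54, and the H3K9 writers Suv39h1, Suv39h2 and Ehmt2 lie close to 0.

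The H3K4 methyltransferases of the COMPASS family were the mark group with the most calls, with 5 of 6 higher. Among all tested genes 12.4% were higher, and in the longest of 4 equal classes of transcript length 25.2%. The group's median transcript is 11912 bases. With the length trend removed, 1 of the 6 was higher, Setd1b, and the group's median log2 fold change went from 1.01 to 0.36. Setd1a and Setd1b encode the catalytic subunits of the SET1 complexes, which place most H3K4 trimethylation at promoters. Setd1a (chr7:127776670-127800122, plus strand, GRCm38) was at 27.9, 71.4, 23 and 106 CPM in LKB1-deficient replicates 1 to 4, against 18.2, 27.5, 17 and 15.1 CPM in control replicates 1 to 4. Its log2 fold change of 1.54 ± 0.44 (SE, adjusted p = 0.0345) was the largest among the members. LKB1-deficient replicates 2 and 4 were far above all others, and LKB1-deficient replicate 3 fell within the control range, so the groups overlapped. The Setd1a call ended without replicate 2 or 4 of the LKB1-deficient cells or replicate 1, 3 or 4 of the controls (adjusted p of 0.069 to 0.109), and without both LKB1-deficient replicates 2 and 4 its log2 fold change was 0.38 (adjusted p = 0.416). Setd1b (chr5:123142193-123168629, plus strand) was at 43.9, 66.7, 43 and 66.3 CPM in LKB1-deficient and 35.8, 28.1, 19.7 and 21.8 CPM in control libraries (log2 fold change 1.05 ± 0.23 SE, adjusted p = 0.0132). Here the groups did not overlap, and the call held when any single library was left out.

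Kmt2d and Kmt2c encode MLL4 and MLL3, which monomethylate H3K4 at enhancers. Kmt2d (chr15:98831669-98871204, minus strand) had 24.8, 57.7, 23.8 and 37.2 CPM in LKB1-deficient libraries, all above the 17.4, 14.5, 11 and 13.6 CPM of the control libraries (log2 fold change 1.33 ± 0.28 SE, adjusted p = 0.0122). Its call held when any single library was left out. Kmt2c (chr5:25271798-25498783, minus strand) had 74.8, 126, 68.3 and 115 CPM in LKB1-deficient and 76.4, 52.1, 30.7 and 36.5 CPM in control libraries (log2 fold change 0.97 ± 0.30 SE, adjusted p = 0.0425). Control replicate 1 lay above LKB1-deficient replicates 1 and 3, and the Kmt2c call ended without replicate 2 or 4 of the LKB1-deficient cells or replicate 2, 3 or 4 of the controls (adjusted p of 0.0691 to 0.118). Kmt2b, encoding MLL2, an H3K4 methyltransferase of promoters, had the smallest spread of the 5. The gene (chr7:30568858-30588726, minus strand) was at 39.7, 48.7, 35.9 and 45.8 CPM in LKB1-deficient and 25.6, 29.9, 24.8 and 23.1 CPM in control libraries (log2 fold change 0.71 ± 0.14 SE, adjusted p = 0.0103), with no overlap, and the call held when any single library was left out. Kmt2a, encoding MLL1, did not pass. It was at 144, 321, 181 and 356 CPM in LKB1-deficient and 207, 159, 90.2 and 89.4 CPM in control libraries (log2 fold change 0.87 ± 0.35 SE, adjusted p = 0.0919), with control replicates 3 and 4 well below control replicates 1 and 2. In the EU libraries alone (those whose sample identifier begins with EU, which leaves out replicate 1 of both groups) Kmt2a passed, at 1.33 (adjusted p = 0.0298). Ash2l, a core subunit that all COMPASS enzymes share, averaged 95.2 ± 11.6 CPM in LKB1-deficient and 81.9 ± 7.11 CPM in control cells (SD, n = 4 each; log2 fold change 0.22 ± 0.13 SE, adjusted p = 0.232). Without both LKB1-deficient replicates 2 and 4 the log2 fold changes were 0.78 (adjusted p = 0.0738) for Kmt2d, 0.72 (adjusted p = 0.135) for Setd1b, 0.55 (adjusted p = 0.0922) for Kmt2b and 0.55 (adjusted p = 0.367) for Kmt2c.

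Among the PRC2 core genes, the scaffold subunit Suz12 rose and the others did not pass. Suz12 (chr11:79993106-80034123, plus strand) was at 562, 1071, 453 and 1026 CPM in LKB1-deficient libraries, all above the 413, 379.6, 242 and 309 CPM of the control libraries (log2 fold change 1.21 ± 0.30 SE, adjusted p = 0.0196). LKB1-deficient replicates 2 and 4 stood far above LKB1-deficient replicates 1 and 3. The Suz12 call ended without replicate 2 or 4 of the LKB1-deficient cells or replicate 3 or 4 of the controls (adjusted p of 0.0538 to 0.0629), and without both LKB1-deficient replicates 2 and 4 its log2 fold change was 0.60 (adjusted p = 0.176). Ezh2, the catalytic subunit that dominates in dividing cells, was at 709, 1291, 635 and 893 CPM in LKB1-deficient and 627, 705, 457 and 485 CPM in control libraries (log2 fold change 0.63 ± 0.24 SE, adjusted p = 0.0813). Its values overlapped through control replicate 2, which lay above LKB1-deficient replicate 3. Eed, the subunit that binds methylated H3K27, was at 285, 237, 181 and 230.2 CPM in LKB1-deficient and 172, 169, 167 and 192 CPM in control libraries (log2 fold change 0.41 ± 0.15 SE, adjusted p = 0.0718), where only control replicate 4 reached into the LKB1-deficient range. With the length trend removed Eed passed, at 0.56 (adjusted p = 0.0274). Ezh1, the catalytic subunit of resting cells, averaged 11 ± 3.71 CPM in LKB1-deficient and 11.2 ± 2.34 CPM in control cells (SD, n = 4 each; adjusted p = 0.911), a difference whose sign changed between processing alternatives. Jarid2, an accessory subunit that helps to bring PRC2 to its targets, averaged 50.2 ± 5.4 CPM in LKB1-deficient and 40.3 ± 7.43 CPM in control cells (SD, n = 4 each; log2 fold change 0.31 ± 0.16 SE, adjusted p = 0.159).

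Upstream sequences are shown for the PRC2 core genes Suz12, Ezh2 and Eed, which are measured side by side here, and for Setd1a, the member with the largest rise. They are the 250 bases before the annotated start, from RefSeq on GRCm38.p6, 5′ to 3′ on the strand of the gene, at chr11:79992856-79993105 (plus), chr6:47595031-47595280 (minus), chr7:89980977-89981226 (minus) and chr7:127777139-127777388 (plus). Capitals mark letters of the E2F motif (TTTCCCGC, TTTGGCGC, TTTCGCGC or TTTGCCGC) and of the CCAAT box (CCAAT), searched on both strands.
Suz12: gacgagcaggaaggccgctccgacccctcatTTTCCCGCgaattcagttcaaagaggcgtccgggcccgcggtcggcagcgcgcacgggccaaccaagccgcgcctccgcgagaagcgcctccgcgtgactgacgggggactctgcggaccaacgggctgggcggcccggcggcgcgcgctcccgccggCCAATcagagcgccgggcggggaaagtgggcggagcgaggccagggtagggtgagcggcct
Ezh2: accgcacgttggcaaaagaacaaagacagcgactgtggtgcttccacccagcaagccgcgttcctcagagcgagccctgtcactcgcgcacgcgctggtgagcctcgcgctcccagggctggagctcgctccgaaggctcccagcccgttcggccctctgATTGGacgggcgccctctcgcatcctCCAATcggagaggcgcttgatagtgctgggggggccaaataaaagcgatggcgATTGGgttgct
Eed: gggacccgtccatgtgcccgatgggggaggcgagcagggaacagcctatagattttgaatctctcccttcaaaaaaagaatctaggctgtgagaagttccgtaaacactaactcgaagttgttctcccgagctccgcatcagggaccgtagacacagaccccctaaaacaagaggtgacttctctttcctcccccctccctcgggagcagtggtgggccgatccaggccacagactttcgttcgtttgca
Setd1a: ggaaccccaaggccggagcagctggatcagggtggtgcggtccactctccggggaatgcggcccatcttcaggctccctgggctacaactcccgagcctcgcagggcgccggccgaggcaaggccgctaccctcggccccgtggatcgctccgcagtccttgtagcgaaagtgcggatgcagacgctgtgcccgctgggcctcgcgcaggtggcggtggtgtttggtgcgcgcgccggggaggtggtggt
The windows end before the RefSeq start. For Suz12 this is also the GENCODE start, for Eed, Ezh2 and Setd1a it lies inside the GENCODE gene, and the Ezh2 and Setd1a windows lie wholly within it. The Suz12 window held 1 E2F match starting 219 bases before the start and 1 CCAAT box, the Ezh2 window held 3 CCAAT boxes, on both strands, and the Eed and Setd1a windows held neither motif. The CCAAT box is in 33.8% and the E2F motif in 1.86% of all 32851 promoter windows of this length in the table, and in 43.6% and 5.45% of the 55 windows of the 42 members that matched it. Searched on both strands as well, the GC box (GGGCGG) was in 65.5% of the members' windows and 32.7% of all windows, the ETS motif (CCGGAA) in 23.6% and 12%, the E-box (CACGTG) in 7.27% and 6.02%, and the core of the cyclic AMP response element (TGACG), in 25.5% and 17.8%. None of these motifs contains another. These are matches of letters and not binding sites.

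The H3K27 demethylase Kdm6b rose. Kdm6b, also called JMJD3, is a JmjC enzyme that is induced by stimulation in lymphocytes and macrophages. Its gene (chr11:69398508-69413675, minus strand) was at 66.4, 74.3, 50.4 and 71.4 CPM in LKB1-deficient and 29.2, 35.3, 25.7 and 27.4 CPM in control libraries (log2 fold change 1.15 ± 0.16 SE, adjusted p = 0.00341, 2.22-fold). All LKB1-deficient libraries were above all controls. The call held when any single library was left out and without both LKB1-deficient replicates 2 and 4, at 0.99 (adjusted p = 0.0425). It also held with the length trend removed, at 0.81 (adjusted p = 0.00531). Its X-linked relative Kdm6a (UTX) did not pass and is described with the sex-linked genes.

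Kdm2b, a demethylase of H3K36 whose CXXC domain binds unmethylated CpG islands and brings a variant of Polycomb repressive complex 1 (PRC1) there, was the other eraser that rose. Kdm2b (chr5:122870665-122989823, minus strand) was at 65.3, 83.6, 55.1 and 104 CPM in LKB1-deficient and 39.3, 40.1, 24.4 and 25.1 CPM in control libraries (log2 fold change 1.25 ± 0.24 SE, adjusted p = 0.00926, 2.38-fold). The groups did not overlap, and within the controls replicates 1 and 2 were above replicates 3 and 4. The call held when any single library was left out and with the length trend removed, at 1.06 (adjusted p = 0.00954), but not without both LKB1-deficient replicates 2 and 4, at 0.90 (adjusted p = 0.0849). Its paralogue Kdm2a was at 80.2, 143, 94.1 and 123 CPM in LKB1-deficient and 100.1, 73.9, 62.9 and 71.7 CPM in control libraries (log2 fold change 0.51 ± 0.21 SE, adjusted p = 0.0936), with control replicate 1 above LKB1-deficient replicates 1 and 3. The other JmjC erasers Kdm7a and Kdm8 averaged 31.2 ± 8.36 and 7 ± 1.27 CPM in LKB1-deficient cells, against 23.4 ± 5.44 and 5.45 ± 0.23 CPM in control cells (SD, n = 4 each), and did not pass.

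Of the 5 H3K36 methyltransferases, 2 rose. Among all tested genes 12.4% were higher, and in the longest of 4 equal classes of transcript length 25.2%. The median transcript of these 5 genes is 10105 bases. With the length trend removed 0 of the 5 were higher (adjusted p = 0.117 for Nsd1 and 0.0911 for Ash1l). Nsd1 (chr13:55209782-55318325, plus strand), which dimethylates H3K36 between genes, was at 99.9, 215, 115 and 286 CPM in LKB1-deficient and 111, 95.1, 54.5 and 46.8 CPM in control libraries (log2 fold change 1.22 ± 0.38 SE, adjusted p = 0.0425). Control replicate 1 lay above LKB1-deficient replicate 1, and the call ended without replicate 2 or 4 of the LKB1-deficient cells or replicate 2, 3 or 4 of the controls (adjusted p of 0.0555 to 0.133). Ash1l (chr3:88950622-89079375, plus strand), an H3K36 methyltransferase of the Trithorax group, was at 79.3, 154, 88.1 and 129 CPM in LKB1-deficient and 70.3, 75.3, 35.3 and 29 CPM in control libraries (log2 fold change 1.10 ± 0.33 SE, adjusted p = 0.039). The groups just failed to overlap, since LKB1-deficient replicate 1 and control replicate 2 were close, and the call ended without replicate 2 or 4 of the LKB1-deficient cells or replicate 3 or 4 of the controls (adjusted p of 0.085 to 0.107). Without both LKB1-deficient replicates 2 and 4 the values were 0.48 (adjusted p = 0.433) for Nsd1 and 0.68 (adjusted p = 0.325) for Ash1l. Setd2, the enzyme that trimethylates H3K36 and travels with RNA polymerase II, had 45.3, 105, 50.2 and 98.1 CPM in LKB1-deficient and 64.6, 55.3, 28.9 and 31.4 CPM in control libraries (log2 fold change 0.72 ± 0.34 SE, adjusted p = 0.14). The NSD family members Whsc1l1 (Nsd3) and Whsc1 (Nsd2) averaged 173 ± 32.5 and 175 ± 27.3 CPM in LKB1-deficient cells, against 123 ± 16.6 and 148 ± 14.1 CPM in control cells (SD, n = 4 each; adjusted p = 0.054 and 0.231). For Whsc1l1 the groups did not overlap, and its log2 fold change of 0.49 turned to -0.09 (adjusted p = 0.701) with the length trend removed.

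Dot1l (chr10:80755206-80795461, plus strand), the H3K79 methyltransferase and the one writer here without a SET domain, was at 90.3, 135, 80 and 116 CPM in LKB1-deficient libraries, all just above or well above the 66.7, 79.2, 58.6 and 59.6 CPM of the control libraries (log2 fold change 0.67 ± 0.18 SE, adjusted p = 0.0282). The Dot1l call ended without replicate 2 or 4 of the LKB1-deficient cells or replicate 1, 3 or 4 of the controls (adjusted p of 0.055 to 0.0831), and its log2 fold change was 0.37 (adjusted p = 0.234) without both LKB1-deficient replicates 2 and 4. Setd8, now named Kmt5a, places monomethylation on H4K20 and is tied to the cell cycle. The gene (chr5:124439930-124462308, plus strand) was at 489, 401, 258 and 349 CPM in LKB1-deficient and 237, 265, 186 and 188 CPM in control libraries (log2 fold change 0.77 ± 0.21 SE, adjusted p = 0.028), and LKB1-deficient replicate 1 was the highest library. Control replicate 2 lay just above LKB1-deficient replicate 3, and the Setd8 call ended without replicate 1, 2 or 4 of the LKB1-deficient cells or replicate 3 or 4 of the controls (adjusted p of 0.0509 to 0.0849); total count scaling ended it too, at 0.62 (adjusted p = 0.0531). Without both LKB1-deficient replicates 2 and 4 its log2 fold change was 0.77 (adjusted p = 0.144). Suv420h1 and Suv420h2, which add further methyl groups to H4K20, had log2 fold changes of 0.09 ± 0.21 (SE, adjusted p = 0.771) and -0.59 ± 0.21 (SE, adjusted p = 0.0631). Neither passed. Suv420h2 averaged 9.69 ± 2.39 CPM in LKB1-deficient and 14.8 ± 2.6 CPM in control cells (SD, n = 4 each). It passed with total count scaling, at -0.74 (adjusted p = 0.0381), and with a term for high Xist, at -0.59 (adjusted p = 0.044).

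None of the 6 H3K9 methyltransferases passed edgeR's test, and their median log2 fold change was -0.03. At an unadjusted p under 0.05, 1 of them was higher and 0 lower, and at an adjusted p of 0.05 DESeq2 called 0 and limma-voom 0. Suv39h1, the heterochromatin enzyme that silences memory genes in effector CD8+ T cells, was at 74.6, 69.1, 69.6 and 77.9 CPM in LKB1-deficient and 69.9, 95, 68.9 and 66.5 CPM in control libraries (log2 fold change -0.05 ± 0.14 SE, adjusted p = 0.836). Its paralogue Suv39h2 averaged 26.3 ± 3.49 CPM in LKB1-deficient and 26.9 ± 8.57 CPM in control cells (SD, n = 4 each; log2 fold change -0.04 ± 0.22 SE, adjusted p = 0.914). The partners Ehmt1 (GLP) and Ehmt2 (G9a), which dimethylate H3K9 together, had log2 fold changes of 0.44 ± 0.18 (SE, adjusted p = 0.102) and -0.03 ± 0.14 (SE, adjusted p = 0.897). Setdb1, which silences retroelements with the corepressor KAP1, averaged 43.4 ± 8.01 CPM in LKB1-deficient and 38.8 ± 4.61 CPM in control cells (SD, n = 4 each; log2 fold change 0.16 ± 0.15 SE, adjusted p = 0.468). The signs of the small differences of Suv39h1, Suv39h2, Ehmt2 and Setdb1 were not the same under all processing alternatives. Setdb2 had a log2 fold change of -0.16 ± 0.41 (SE, adjusted p = 0.805). These values do not show that the genes were equal in both groups, since standard errors of 0.14 to 0.41 leave room for changes.

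The demethylases of the Kdm4, Kdm3 and Kdm1 families did not pass edgeR's test either. Of the 7 tested, 0 had an unadjusted p under 0.05 or a call by DESeq2 or limma-voom. The 3 tested genes of the Kdm4 family, JmjC enzymes that act on trimethylated H3K9 and H3K36, all had lower means in LKB1-deficient cells. Kdm4a was at 36.9, 22.1, 37.9 and 28 CPM in LKB1-deficient and 35.6, 37.1, 45.6 and 46.6 CPM in control libraries (log2 fold change -0.39 ± 0.18 SE, adjusted p = 0.14), Kdm4b had a log2 fold change of -0.31 ± 0.25 (SE, adjusted p = 0.387) and Kdm4c one of -0.25 ± 0.21 (SE, adjusted p = 0.41). LKB1-deficient replicates 2 and 4 had the lowest Kdm4a values. Kdm3a and Kdm3b, which act on less methylated H3K9, averaged 57.1 ± 10.9 and 36.8 ± 11.7 CPM in LKB1-deficient cells and 61.6 ± 4.92 and 30.7 ± 5.29 CPM in control cells (SD, n = 4 each). Kdm1a (LSD1), the amine oxidase of the CoREST complex, was at 171, 136, 118 and 140.2 CPM in LKB1-deficient and 134, 145, 105 and 102 CPM in control libraries (log2 fold change 0.22 ± 0.17 SE, adjusted p = 0.352), and Kdm1b (LSD2) had a log2 fold change of -0.22 ± 0.14 (SE, adjusted p = 0.239).

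Smyd3 was the only member that fell. SMYD3 is a lysine methyltransferase with a MYND zinc finger that methylates kinases of the MAPK pathway in the cytoplasm and has been described as acting on histones. Its gene (chr1:178951960-179518041, minus strand) was at 13.2, 12.2, 12 and 12.7 CPM in LKB1-deficient and 23.1, 23.2, 22.9 and 20 CPM in control libraries (log2 fold change -0.84 ± 0.12 SE, adjusted p = 0.00402, 1.78-fold lower). Both groups were tight and far apart, and the call held when any single library was left out, without both LKB1-deficient replicates 2 and 4, at -0.83 (adjusted p = 0.046), and with the length trend removed, at -1.19 (adjusted p = 0.00309). Smyd3 is 1 of the 32 members in the longest of 4 equal classes of transcript length, where 3.86% of all genes fell. The other SMYD genes did not pass: Smyd1, Smyd2, Smyd4 and Smyd5 averaged 5.63 ± 2.67, 95.7 ± 8.95, 13.9 ± 1.91 and 114 ± 8.64 CPM in LKB1-deficient cells, against 7.33 ± 2.66, 92.8 ± 16.6, 12.8 ± 1.81 and 99.2 ± 8.32 CPM in control cells (SD, n = 4 each).

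The remaining SET-domain genes did not pass. Setd5 was at 81, 176, 116 and 224 CPM in LKB1-deficient and 81.2, 118, 39.3 and 34.4 CPM in control libraries (log2 fold change 1.13 ± 0.42 SE, adjusted p = 0.0743), with control replicates 3 and 4 far below control replicates 1 and 2 and LKB1-deficient replicate 1 level with control replicate 1. Kmt2e, a SET-domain protein described as lacking methyltransferase activity, averaged 277 ± 48.6 CPM in LKB1-deficient and 189 ± 59.1 CPM in control cells (SD, n = 4 each; log2 fold change 0.55 ± 0.23 SE, adjusted p = 0.0997). Setd3, a histidine methyltransferase of actin, was at 49.5, 157, 86.6 and 46.6 CPM in LKB1-deficient and 49.3, 59.1, 50.3 and 60.8 CPM in control libraries (log2 fold change 0.63 ± 0.34 SE, adjusted p = 0.189), with LKB1-deficient replicate 2 alone far above the rest. By means, Setd4, Setd6 and Setd7 averaged 12 ± 2.02, 41.8 ± 6.34 and 32.7 ± 4.7 CPM in LKB1-deficient cells and 14.4 ± 1.13, 42.4 ± 4.62 and 27.8 ± 6.43 CPM in control cells (SD, n = 4 each).

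The Kdm5 family, which removes methyl groups from H3K4, had no calls by edgeR. In the library of each group with high Xist, Kdm5d was at or near 0 and Kdm5c was the highest of its group. At an unadjusted p under 0.05, 2 of the 4 Kdm5 genes were higher and 0 lower, and DESeq2 called 2 (Kdm5a and Kdm5c). Kdm5d, on the Y chromosome, was at 11, 18.1, 23.6 and 0 CPM in LKB1-deficient replicates 1 to 4, against 15.6, 20.4, 12.9 and 0.13 CPM in control replicates 1 to 4. The values in replicate 4 of both groups, 0 counts and 1 count, are under the 3 counts taken as the floor (0.809 CPM in the LKB1-deficient and 0.39 CPM in the control library), and these are the libraries with high Xist. Its fitted log2 fold change of 0.11 ± 0.89 (SE, adjusted p = 0.937) averages over libraries with and without the gene. Kdm5c, its X-linked homologue, which escapes X inactivation, was at 48.7, 38.5, 48 and 124 CPM in LKB1-deficient and 32.8, 34.8, 31 and 40.8 CPM in control libraries (log2 fold change 0.89 ± 0.33 SE, adjusted p = 0.0701). LKB1-deficient replicate 4 stood far above the other LKB1-deficient libraries. Control replicate 4 was the highest control, above LKB1-deficient replicate 2 but below LKB1-deficient replicates 1 and 3. Kdm5c passed with a term for high Xist, at 0.74 (adjusted p = 0.0409), and without replicate 4 of both groups it was 0.46 (adjusted p = 0.117).

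Kdm6a, which also escapes X inactivation, was at 48.4, 64.1, 43 and 89.8 CPM in LKB1-deficient and 36.5, 38.7, 33.7 and 53.5 CPM in control libraries (log2 fold change 0.59 ± 0.24 SE, adjusted p = 0.0928), with replicate 4 the highest of each group. It passed with a term for high Xist, at 0.57 (adjusted p = 0.0354), and was at 0.51 (adjusted p = 0.132) without replicate 4 of both groups. The autosomal members did not pass. Kdm5a was at 219.7, 368, 325 and 470.4 CPM in LKB1-deficient and 268, 264, 126 and 125 CPM in control libraries (log2 fold change 0.82 ± 0.31 SE, adjusted p = 0.0805), with the same split between control replicates as Nsd1, Kmt2a and Setd5. In the EU libraries alone Kdm5a passed, at 1.18 (adjusted p = 0.0394). Kdm5b averaged 62.7 ± 15.3 CPM in LKB1-deficient and 63.3 ± 25.2 CPM in control cells (SD, n = 4 each; adjusted p = 0.977), with no stable sign between processing alternatives.

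**Figure D3:**
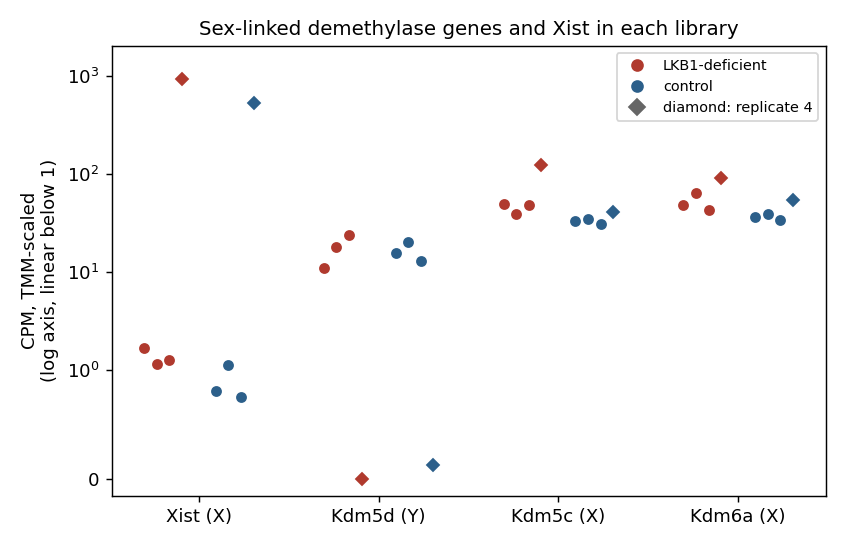
CPM (log axis, linear below 1) of Xist and of the sex-linked erasers Kdm5d, Kdm5c and Kdm6a in each library, LKB1-deficient in red left of control in blue, with diamonds for replicate 4. Replicate 4 of both groups is high in Xist, at or near 0 in Kdm5d and the highest of its group in Kdm5c and Kdm6a.

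Transcript length moved with these results. The members are long: their median longest annotated transcript is 5935 bases, against 3336.5 bases for all tested genes, and 32 of 55 lie in the longest of 4 equal classes, at 4729 bases or more. In that class 25.2% of all genes were called higher and 3.86% lower, with a median log2 fold change of 0.33, and of the 32 members there 10 rose and 1 fell, with a median of 0.57. In the shortest class 4.29% of all genes were higher and 18.7% lower, with a median of -0.24, and none of the 3 members there passed. Across the 55 members the log2 fold change and the log2 transcript length had a Pearson r of 0.49 and a Spearman rho of 0.50, and across all 10352 tested genes with a length 0.31 and 0.39. These describe genes measured in the same 8 libraries, which are not independent points.

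**Figure D4:**
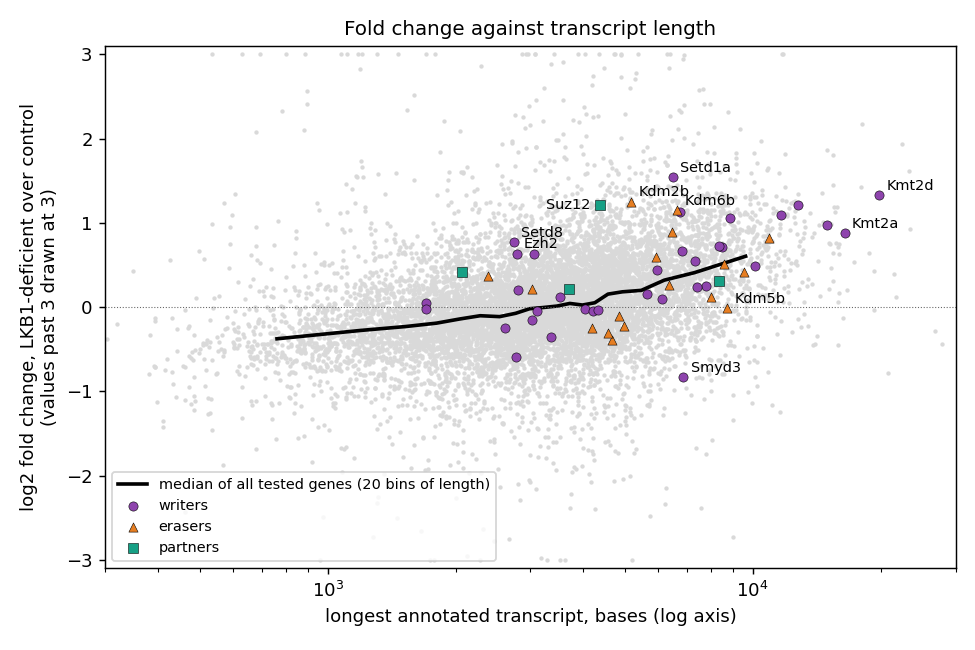
Log2 fold change (LKB1-deficient over control) against the longest annotated transcript in bases (log axis), for all tested genes in grey with their median in 20 bins of length as a line, and for writers, erasers and partners as coloured points. The median of all genes climbs with length, and Kmt2d and Kmt2a lie at its long end, whereas Suz12, Setd8, Ezh2 and Setd1a lie well above it and Smyd3 well below.

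The same order appears library by library. The median deviation of the longest class of genes from their mean over the 8 libraries (log2 CPM) was 0.02, 0.31, 0.07 and 0.28 in LKB1-deficient replicates 1 to 4 and -0.05, -0.02, -0.26 and -0.27 in control replicates 1 to 4. For the writers it was -0.06, 0.39, 0.07 and 0.32 in LKB1-deficient and -0.05, 0.03, -0.34 and -0.44 in control libraries, and for the erasers it was -0.07, 0.21, 0.10 and 0.11 in LKB1-deficient and 0.02, 0.06, -0.25 and -0.29 in control libraries. LKB1-deficient replicates 2 and 4 were thus the highest and control replicates 3 and 4 the lowest both for long genes at large and for the writers, and LKB1-deficient replicate 1 was level with control replicates 1 and 2. Reads in no annotated gene, another property of the libraries, were 14.9% to 17.5% in LKB1-deficient and 12.1% to 14.3% in control libraries. Entries for alignments that were not unique, per count in a gene, were 2.65, 2.25, 2.62 and 2.21 in LKB1-deficient replicates 1 to 4. In control replicates 1 to 4 they were 3.07, 2.92, 3.37 and 3.50. LKB1-deficient replicates 2 and 4 were thus the lowest and control replicates 3 and 4 the highest. The part of RNA quality or library preparation in these differences was not tested.

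When each library's trend on length was removed, 9.22% of all genes were higher and 8.23% lower, and 6 members were higher and 1 lower. The writers then had 2 higher (Setd1b and Setd8) and 1 lower (Smyd3), the partners 2 higher (Suz12 and Eed), and the erasers 2 higher (Kdm6b and Kdm2b). Setd1b was at 0.56 (adjusted p = 0.0243), Setd8 at 0.84 (adjusted p = 0.0233) and Suz12 at 1.11 (adjusted p = 0.0228). The medians were 0.17 for writers, 0.37 for partners and -0.06 for erasers. Of the called writers, Kmt2d was at 0.45 (adjusted p = 0.0948), Kmt2c at 0.26 (adjusted p = 0.27), Kmt2b at 0.24 (adjusted p = 0.162), Nsd1 at 0.54 (adjusted p = 0.117), Ash1l at 0.51 (adjusted p = 0.0911), Dot1l at 0.31 (adjusted p = 0.113) and Setd1a at 1.18 (adjusted p = 0.0595). Removal also takes away any true difference that follows length.

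**Figure D5:**
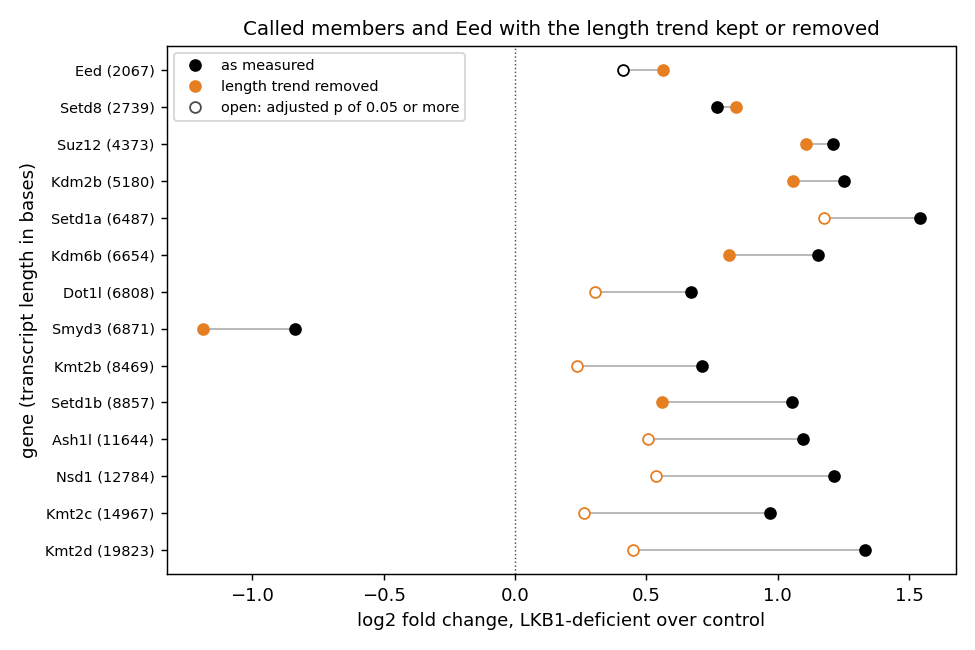
Log2 fold change (LKB1-deficient over control) of the 13 called members and Eed as measured (black) and with each library's trend on transcript length removed (orange), ordered by transcript length, with open circles for an adjusted p of 0.05 or more. From 4373 bases up all values shrink except that of Smyd3, which moves away from 0, and Setd8, Suz12, Kdm2b, Kdm6b, Smyd3 and Setd1b stay filled.

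Genes that work with these enzymes were read from lists, described by counts against the same 12.4% higher and 10.1% lower of all genes. Of 6 tested PRC2 partners outside the members 1 rose, Aebp2, an accessory subunit, at 409.7 ± 48.6 CPM in LKB1-deficient and 279 ± 38.1 CPM in control cells (SD, n = 4 each; log2 fold change 0.55 ± 0.15 SE, adjusted p = 0.0297). Of 12 tested COMPASS partners 2 rose and none fell, and with the length trend removed none passed. Hcfc1, a subunit of SET1 and MLL complexes, had a log2 fold change of 0.67 ± 0.15 (SE, adjusted p = 0.0138) and Bod1l one of 1.33 ± 0.42 (SE, adjusted p = 0.0465), with Bod1l at 266, 866, 408 and 854 CPM in LKB1-deficient and 338, 311, 180.1 and 120.2 CPM in control libraries. Wdr5, Rbbp5 and Dpy30, which form the shared core of the complexes with Ash2l, did not pass. Of 18 tested PRC1 genes, a list that includes Kdm2b, 3 rose and 2 fell. Pcgf3, a subunit of a variant PRC1, had a log2 fold change of 1.32 ± 0.37 (SE, adjusted p = 0.0323), and Phc2, a subunit of canonical PRC1, and Ring1, a catalytic subunit, had log2 fold changes of -0.58 ± 0.13 (SE, adjusted p = 0.0136) and -0.48 ± 0.15 (SE, adjusted p = 0.0454).

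Of 11 tested readers and partners of H3K9 methylation all had positive log2 fold changes (median 0.76), but 2 rose by the test. Cbx5, encoding the heterochromatin protein HP1 alpha, was at 417, 662, 644 and 627 CPM in LKB1-deficient and 392, 341, 295 and 245 CPM in control libraries (log2 fold change 0.89 ± 0.20 SE, adjusted p = 0.0146), with no overlap. Mphosph8, a subunit of the HUSH silencing complex that binds methylated H3K9, averaged 702 ± 198 CPM in LKB1-deficient and 389 ± 108 CPM in control cells (SD, n = 4 each; log2 fold change 0.85 ± 0.25 SE, adjusted p = 0.0376). The list's median was 0.40 with the length trend removed, with 1 gene higher. Of 18 tested SET, PR and JmjC genes outside the members, 5 rose and none fell, among them the PR-domain factors Prdm1 and Prdm16, with log2 fold changes of 2.71 ± 0.37 (SE, adjusted p = 0.00341) and 1.21 ± 0.26 (SE, adjusted p = 0.0124). The median transcript of this list is 5210 bases, and with the length trend removed 2 of its genes were higher. Of 8 partners of erasers 1 rose, the corepressor Rcor1 (log2 fold change 0.70 ± 0.21 SE, adjusted p = 0.0388). For the supply of the methyl donor, 7 of 8 listed genes were tested. The gene not tested, for too few reads, was Mat2a, the catalytic partner of Mat2b, so its level is not known here. Mat2b, the regulatory subunit of the enzyme that makes S-adenosylmethionine, fell, at 64.3 ± 7.65 CPM in LKB1-deficient and 105 ± 6.47 CPM in control cells (SD, n = 4 each; log2 fold change -0.71 ± 0.12 SE, adjusted p = 0.00669), and Ahcyl2, a relative of the enzyme that removes S-adenosylhomocysteine, rose (log2 fold change 0.69 ± 0.15 SE, adjusted p = 0.0142). None of 22 proliferation genes passed edgeR's test, and their median was -0.05. At an unadjusted p under 0.05, 5 of them were higher and 3 lower, DESeq2 called 6 higher and 1 lower, and limma-voom 2 higher and none lower, beside the shares of all genes given above for each. With single libraries left out, the calls of Hcfc1, Phc2, Cbx5, Prdm1, Prdm16, Ahcyl2 and Mat2b held. With the length trend removed, 5 of the 13 genes named from the lists passed (Phc2, Mphosph8, Prdm1, Ahcyl2 and Mat2b) and 8 did not, Aebp2 at an adjusted p of 0.245, Hcfc1 at 0.17, Bod1l at 0.103, Pcgf3 at 0.07, Ring1 at 0.0778, Cbx5 at 0.0871, Prdm16 at 0.0814 and Rcor1 at 0.115. Without replicate 4 of both groups, only Prdm1 and Mat2b of the 13 genes named from the lists remained called. Calls that ended with a single library left out were those of Aebp2 without replicate 2 or 4 of the LKB1-deficient cells or replicate 1, 2 or 4 of the controls (adjusted p of 0.0555 to 0.0749), Bod1l without replicate 2 or 4 of the LKB1-deficient cells or replicate 1, 2, 3 or 4 of the controls (adjusted p of 0.05 to 0.135), Pcgf3 without replicate 2 or 4 of the LKB1-deficient cells or replicate 1, 3 or 4 of the controls (adjusted p of 0.0702 to 0.0959), Ring1 without replicate 2 or 4 of the LKB1-deficient cells or replicate 1, 2, 3 or 4 of the controls (adjusted p of 0.0512 to 0.108), Mphosph8 without replicate 2 or 4 of the LKB1-deficient cells or replicate 3 or 4 of the controls (adjusted p of 0.0948 to 0.106) and Rcor1 without replicate 2, 3 or 4 of the LKB1-deficient cells or replicate 1, 3 or 4 of the controls (adjusted p of 0.0702 to 0.0899).

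Of the 13 called members 9 overlap another annotated gene in GENCODE vM21, among them Kdm6b with its antisense gene Kdm6bos, Ash1l with Dap3 on the other strand and Kdm2b with Rnf34 on the other strand. The library protocol keeps the strand, but the strand setting of the counting is not given in the sources used here, so reads of such pairs may not have been told apart.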

How the data were processed

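The libraries are 3' RNA-seq, made with barcoded oligo-dT primers and pooled before PCR, per the labels' protocols, which state no molecular identifiers, so duplicate reads from PCR cannot be recognised and counting error is a lower limit. Per the submitters' processing notes reads were aligned with STAR to mm10; the sources used here name no counting program, version or annotation. The deposited files hold raw counts of reads for each gene symbol; 5 summary lines with no gene name stayed out of totals and tests, and reads in no feature were 12.1% to 17.5% of gene, ambiguous and unannotated counts.

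The counts went into edgeR 4.0.16 under R 4.3.3: filterByExpr (minimum count 10, minimum total 15), TMM scaling, robust quasi-likelihood test of the 2 groups with no covariates, Benjamini-Hochberg adjustment over 10396 genes, calls at 0.05. SEs are approximate, from the log2 fold change and the F statistic (its size over √F). Alternatives used DESeq2 1.42.0, limma 3.58.1, other scalings and filters, a replicate block, terms for the prefix of the sample identifier (ET or EU) or high Xist (100 CPM or more), each library left out, thinning to 3454388 counts, stricter thresholds and removal of each library's lowess trend (span 0.3) of log2 CPM on transcript length. Leaving out replicate 4 of both groups, and the block with the trend removed, were chosen after seeing the data. The tests were checked on simulated counts. No 2 libraries of a group were duplicates: chi-square per degree of freedom of their counts ran from 11.6 to 49.1.

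Members, lists and mark groups were chosen with earlier results of these data known. Named were all called members, the 3 writers and 3 erasers with the smallest p that did not pass, members fixed for their role, up to 2 called genes a direction of each other list, Stk11 and Xist; the other members are given to account for all. Positions and lengths (longest transcript, 99.6% of tested genes) are from GENCODE vM21 on GRCm38 (mm10); 5 older symbols were matched to current ones.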

Additional observations from a re-analysis of the deposited data

Results flagged for a closer look

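In 3 of 70 group values of the named members, 1 library stood apart from the other 3, where chance marks about 1 in 20. Kdm5c was at 124 CPM in LKB1-deficient replicate 4 and at 38.5 to 48.7 CPM in the other LKB1-deficient libraries; this is the LKB1-deficient library with high Xist. Smyd3 was at 20 CPM in control replicate 4 and at 22.9 to 23.2 CPM in the other controls, which leaves all of them above the LKB1-deficient libraries. Suv39h1 was at 95 CPM in control replicate 2 and at 66.5 to 69.9 CPM in the other controls.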

How the results depend on the processing

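The 9 writers higher became 0 at an adjusted p of 0.01, against a 1.5-fold change, without both LKB1-deficient replicates 2 and 4 and without replicate 4 of both groups, 2 with the length trend removed, 3 with the block and the trend removed, and 5 with no filter or with a term for high Xist; without single libraries they were 3 to 11. The 1 writer lower became 2 with upper quartile scaling, total count scaling or the Xist term, 0 against a 1.5-fold change, and 1 to 2 without single libraries. The 1 partner higher became 2 with DESeq2's Wald test and with the length trend removed, alone or with the block, and 0 at an adjusted p of 0.01, against a 1.5-fold change, without both LKB1-deficient replicates 2 and 4 or without replicate 4 of both groups, and 0 to 2 without single libraries. The 2 erasers higher became 4 with DESeq2's Wald test, EU libraries alone or the Xist term, and 1 against a 1.5-fold change, without both LKB1-deficient replicates 2 and 4 or without replicate 4 of both groups, and 2 to 4 without single libraries; the 0 erasers lower were 0 to 1. 

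All 1286 higher and 1051 lower genes became 248 and 189 at an adjusted p of 0.01, 116 and 61 against a 1.5-fold change, 162 and 98 without both LKB1-deficient replicates 2 and 4, 256 and 198 without replicate 4 of both groups, and 726 and 664 with the block and the trend removed. EU libraries alone gave 666 lower and total count scaling 829 higher genes, and single libraries left out gave 560 to 1472 and 441 to 1353. Under total count scaling the medians were -0.16 for all genes, 0.17 for writers and 0.08 for erasers.

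Signs turned for small differences that did not pass. With the length trend removed Whsc1l1 was at -0.09, Jarid2 at -0.12, Setdb1 at -0.08 and Kdm5d at -0.23, and with the block as well -0.07, -0.13, -0.09 and -0.27. Total count scaling gave -0.01 for Setdb1 and for Kdm5d, and limma-voom -0.21 for Kdm5d and 0.05 for Kdm5b. Kdm5b was at 0.04 with the replicate block, 0.00 with the prefix or Xist term and 0.11 without both LKB1-deficient replicates 2 and 4. Ehmt2 was then at 0.11, at 0.01 when thinned and at 0.10 without replicate 4 of both groups. Ezh1 was at 0.10 in EU libraries, Suv39h1 at 0.03 when thinned and Suv39h2 at 0.01 with the block. Stk11 was at 0.18, 0.10, 0.03 and 0.03 without both LKB1-deficient replicates 2 and 4, in EU libraries, when thinned and without replicate 4 of both groups. Without single libraries the ranges were -0.09 to 0.05 for Ehmt2, -0.28 to 0.08 for Ezh1, -0.17 to 0.25 for Kdm5b, -0.39 to 0.51 for Kdm5d, -0.10 to 0.09 for Suv39h1, -0.17 to 0.20 for Suv39h2 and -0.22 to 0.08 for Stk11. The causes were not tested, beyond fewer samples where libraries were left out.

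Whether same-numbered libraries of the groups are pairs is not settled. Their deviations went together in replicates 2 and 3 (correlations 0.29 and 0.30) and not in replicates 1 and 4 (-0.25 and -0.09). Differently numbered libraries had correlations of -0.37 to 0.34. Replicate 1 of both groups has the prefix ET, and replicate 4 of both groups has high Xist. The labels state no pairs, so the main test took none. The replicate block gave 1075 higher and 827 lower genes, 8 writers and 3 erasers higher. It ended the call of Nsd1, at 1.17 (adjusted p = 0.0692), and Kdm6a passed, at 0.56 (adjusted p = 0.0337).

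Depth limits the LKB1-deficient side, where 3 counts are 0.472 to 0.874 CPM, against 0.227 to 0.39 CPM in controls, and members near that level (Kdm4d, Kdm5d in replicate 4) have no usable fold change.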
